A study of Mus musculus with 8 samples.

Results

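Phospholipase A2 and eicosanoid pathway genes were followed in the epididymal fat of mice fed conjugated linoleic acid. Members were the genes whose symbol begins with Pla2g, Alox, Ptges or Cyp2j or names a prostaglandin E receptor, together with a set of named synthases, receptors and inactivating enzymes of the pathway. The choice by name gave 52 genes on 55 probes, of the 16504 genes on the array. No probe carried the symbols Ptgs1, Ptgdr or Ltb4r2, which the choice also named, so these 3 genes were not analysed here.

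Eicosanoids are short-lived lipid signals made from arachidonic acid and related fatty acids. Phospholipase A2 enzymes release the fatty acid from membrane phospholipids, cyclooxygenases turn it into prostaglandin H, and separate synthases then form prostaglandins, prostacyclin and thromboxane. Lipoxygenases lead to leukotrienes and hydroxy fatty acids, and P450 epoxygenases to epoxides. In fat tissue, prostaglandin E acts on adipocytes to restrain lipolysis, and macrophages and mast cells are further sources of eicosanoids.

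RNA came from epididymal adipose tissue of polygenic obese mice, a line prone to obesity through many genes. The treated pools were from mice on conjugated linoleic acid (CLA), which stands for several isomers of linoleic acid, and their controls were from mice fed linoleic acid (LA). The labels give no strain name, age or dose, and sex only through the tissue, since epididymal fat is a male depot. Each of 8 arrays set a CLA pool against an LA pool in 2 colours, 4 arrays at day 14 of the trial and 4 at day 5, with 4 or 5 mice a pool. At both days the CLA pool was labelled with Cy5 on arrays 1 and 2, and with Cy3 on arrays 3 and 4. Whether arrays share pools is not stated, so the p-values cover the array-to-array spread alone, which may be technical. The number of arrays limits the precision. No intensities were used here, so neither a gene's level nor the presence of adipocyte transcripts could be examined, only ratios.

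Values are log2 ratios read as CLA over LA. This direction is likely rather than stated. CLA is the labelled treatment, and Ucp1, a thermogenic gene, lay above 0 on all 4 day 14 arrays (3.21, 3.66, 3.71 and 3.47). Ucp1 served for this choice and is no result here, and the reverse reading would turn every sign below. The arrays were used as deposited. Spots with a strong signal in 1 dye changed sign between the dye orientations, as they would on arrays already turned by the authors: 473 probes without a single gene symbol had a mean beyond 2 log2 units on both days once arrays 3 and 4 were turned, against 1 probe of any kind with the arrays as deposited. Of probes with 1 symbol, 16 did so, and 0 member probes. The log base was inferred from the values. If they were deposited as log2 and not log10, all log2 values here are too large by a factor of 3.32, while p-values and signs stand. Array 3 of day 5 stood apart, with a residual spread of 0.71 log2 units against 0.25 to 0.57 on the other 7 arrays. On it, 28 of the 52 members had their day 5 value farthest from 0. In bulk tissue, fewer cells of a type and less RNA per cell cannot be told apart.

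At day 14 the members showed no common direction. The secreted phospholipase Pla2g2e had the largest ratio, 2.73-fold, and the inducible cyclooxygenase Ptgs2, the prostaglandin D synthase Hpgds, the thromboxane synthase Tbxas1 and the inactivating enzymes Hpgd and Ptgr1 lay above 0 with smaller ratios. The inducible prostaglandin E synthase Ptges lay below 0. The 8 arrays fitted together with limma called 0 members at an adjusted p under 0.05, where 0% of all genes were called. At an unadjusted p under 0.05 there were 6 members higher (4.24% of all genes) and 1 lower (5.53% of all genes). Of the members 33 lay above 0 and 19 below, with a median log2 ratio of 0.03, against 8294 of 16504 genes above 0 and a median of 0.00 over all genes. The median absolute log2 ratio was 0.139 over the members and 0.105 over all genes.

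Alternative fits called a few members at day 14. With the day 14 arrays alone, limma called 1 member higher, Pla2g2e, where 0.533% of all genes were called higher, and 0 members lower, where 1.04% were. With all 8 arrays weighted by quality, 4 members were called higher (background 1.32%) and 0 lower (2.22%). These 4 were Pla2g2e (adjusted p = 0.0161), Ptgs2 (0.027), Hpgd (0.0391) and Hpgds (0.0392). Counted by sign alone, 6 members lay above 0 on all 4 day 14 arrays (6.3% of all genes) and 4 below (7.06%).

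**Figure D1:**
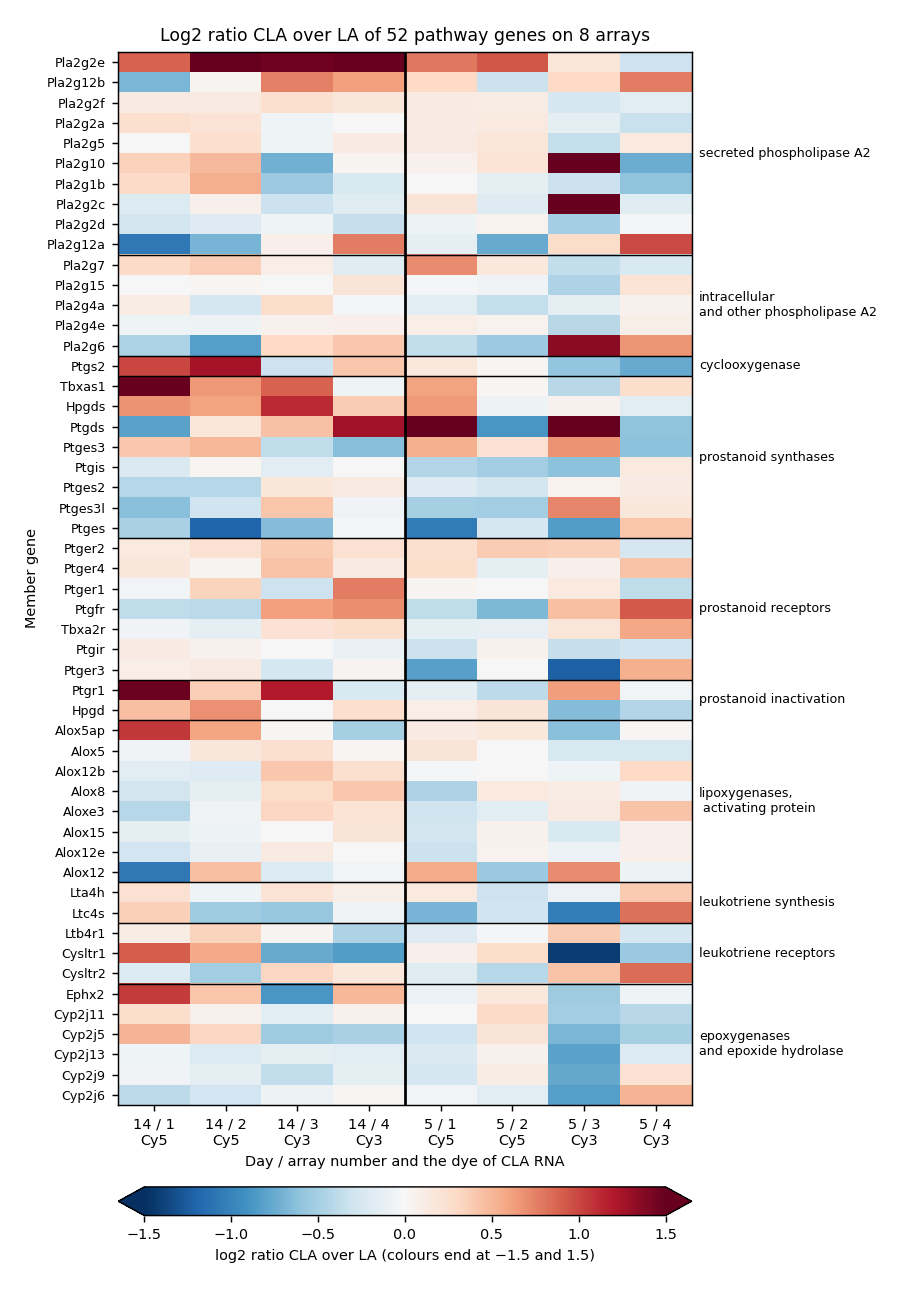
Each row is a member gene and each column an array, day 14 on the left and day 5 on the right, labelled with its number and the dye of the CLA RNA; colour gives the log2 ratio CLA over LA, cut at −1.5 and 1.5, and rows are grouped by role. Pla2g2e is above 0 on all day 14 arrays, and array 3 of day 5 holds most of the extreme day 5 values.

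Secreted phospholipases A2 act outside the cell on membranes and lipoproteins. Pla2g2e, a group II enzyme of this kind, had log2 ratios of 0.89, 1.96, 1.46 and 1.48 on the 4 day 14 arrays, against 0.80, 0.93, 0.19 and −0.31 on the 4 day 5 arrays. All day 14 values were positive and 3 of them exceeded every day 5 value, while the array 1 value of 0.89 lay below the highest at day 5. Its day 14 estimate was 1.45 ± 0.21 (SE, n = 4 arrays). This error, like those below, rests on the spread over all 8 arrays, so noise at day 5 enters the day 14 errors. The limma adjusted p of Pla2g2e was 0.187 over all 8 arrays and 0.039 with the day 14 arrays alone. With the day 14 arrays alone the call was lost when any single array was left out (adjusted p = 0.0569 to 0.103 in limma), without the dye term (0.264) and with probes tested in place of genes (0.0614). With arrays 3 and 4 turned its estimate was −0.02.

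Pla2g2e lies on mouse chromosome 4 in a run of members, in the order Pla2g2c, Pla2g2f, Pla2g2d, Pla2g5, Pla2g2a and Pla2g2e, with at most 2 other annotated genes between neighbours. Over all 8 arrays, no other gene of the run had an unadjusted p under 0.05 at day 14. Pla2g2d, a group II enzyme of dendritic cells and macrophages, had −0.27, −0.19, −0.07 and −0.35 at day 14, against −0.08, 0.06, −0.52 and −0.02 at day 5. Pla2g2f had 0.13, 0.14, 0.25 and 0.17 at day 14, against 0.12, 0.11, −0.25 and −0.17 at day 5. Both were uniform in sign at day 14, with estimates of −0.22 ± 0.11 and 0.17 ± 0.09 (SE, n = 4) and limma adjusted p of 0.572 and 0.59 over all 8 arrays. With the day 14 arrays alone their unadjusted limma p were 0.0363 and 0.0475, and the adjusted p 0.228 and 0.255. Pla2g2a, the group IIA enzyme, had 0.24, 0.20, −0.06 and −0.003 at day 14, against 0.12, 0.15, −0.14 and −0.33 at day 5, positive with CLA in Cy5 and negative with CLA in Cy3 on both days. Pla2g5 had a day 14 estimate of 0.08 ± 0.10. Pla2g2c lay at −0.16 ± 0.55 at day 14, an error widened by a single value of 3.58 on array 3 of day 5, against −0.20 to 0.20 on the other day 5 arrays.

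The start region of Pla2g2e is printed with that of its neighbour Pla2g2d, which lay on the other side of 0 at day 14, and with that of Ptgs2. Each runs from 250 bases before to 50 after the annotated start, from RefSeq on GRCm38.p6, plus strand, at chr4:138877692-138877991, chr4:138775485-138775784 and chr1:150099781-150100080. Capitals mark matches on either strand to 6 motifs, picked with the windows in view. The AP-1 motif was searched as TGANTCA and the motif of the C/EBP factors as TTGCNNAA. The half-site of the cyclic AMP response element was searched as ACGTCA, and the E-box, which basic helix-loop-helix proteins bind, was searched as CACGTG. The half-site that many nuclear receptors share was searched as AGGTCA, and the TATA box of core promoters was searched with the letters TATAAA.
Pla2g2e: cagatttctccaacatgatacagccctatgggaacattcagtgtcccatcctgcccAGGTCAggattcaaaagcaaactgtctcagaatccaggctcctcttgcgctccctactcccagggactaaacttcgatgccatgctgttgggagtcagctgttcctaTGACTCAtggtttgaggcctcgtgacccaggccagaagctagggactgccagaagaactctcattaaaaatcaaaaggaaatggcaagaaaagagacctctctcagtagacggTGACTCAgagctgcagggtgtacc
Pla2g2d: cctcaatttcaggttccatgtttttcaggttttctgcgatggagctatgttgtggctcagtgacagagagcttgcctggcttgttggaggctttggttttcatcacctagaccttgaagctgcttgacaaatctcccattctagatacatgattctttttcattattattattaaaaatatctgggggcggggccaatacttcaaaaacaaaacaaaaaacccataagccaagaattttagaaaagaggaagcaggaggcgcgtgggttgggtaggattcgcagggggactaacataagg
Ptgs2: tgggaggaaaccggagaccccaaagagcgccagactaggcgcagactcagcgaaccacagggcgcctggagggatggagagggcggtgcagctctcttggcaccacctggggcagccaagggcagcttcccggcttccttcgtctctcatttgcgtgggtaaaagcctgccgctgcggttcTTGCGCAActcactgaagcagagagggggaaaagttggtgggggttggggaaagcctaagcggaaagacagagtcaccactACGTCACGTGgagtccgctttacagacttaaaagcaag
The Pla2g2e window held 2 matches to the AP-1 motif and 1 to the nuclear receptor half-site. The Ptgs2 window held 1 match each to the C/EBP motif, the cyclic AMP half-site and the E-box, of which the last 2 overlap, and the Pla2g2d window held 0 matches. Of 32544 distinct mouse windows of this length, 7.79% held the AP-1 motif, 16.2% the nuclear receptor half-site, 10.8% the C/EBP motif, 7.55% the cyclic AMP half-site, 7.17% the E-box and 13.6% the TATA box. A match describes the letters and not a bound site. Among the members, 43 had such a window.

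The other secreted phospholipases had no unadjusted p under 0.05 at day 14 over all 8 arrays. Pla2g12a had −1.08, −0.70, 0.08 and 0.77 at day 14, against −0.14, −0.76, 0.27 and 1.00 at day 5, so the arrays with CLA in Cy5 were negative and those with CLA in Cy3 positive on both days. Pla2g1b, the pancreatic enzyme, had 0.28, 0.55, −0.55 and −0.23 at day 14, against −0.01, −0.13, −0.32 and −0.60 at day 5. It was the 1 member below 0 on all 4 day 5 arrays (3.24% of all genes), with 0 members above 0 on all 4 (2.25%). Pla2g10 and Pla2g12b lay at 0.04 and 0.18 at day 14, and Pla2g10 reached 2.63 on array 3 of day 5. Over these 10 secreted enzymes, which leave out the acetylhydrolase Pla2g7, the median log2 ratio was 0.06 at day 14 and 0.06 at day 5.

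Among the remaining phospholipases A2, Pla2g4a, the cytosolic phospholipase that prefers arachidonic acid, had 0.11, −0.27, 0.26 and −0.01 at day 14, against −0.16, −0.35, −0.14 and 0.07 at day 5. Its day 14 estimate was 0.02 ± 0.10 (SE, n = 4), smaller than the spread between arrays. Pla2g6 (calcium-independent) lay at −0.15, Pla2g4e at −0.002, the lysosomal Pla2g15 at 0.06, and Pla2g7, the acetylhydrolase of platelet-activating factor that circulates on lipoproteins, at 0.14 at day 14. None of the 5 had an unadjusted p under 0.05 at either day in limma's fit of all arrays.

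Ptgs2, the cyclooxygenase induced by inflammatory and growth signals, had log2 ratios of 1.00, 1.25, −0.31 and 0.41 at day 14, against 0.16, 0.03, −0.59 and −0.75 at day 5. Of the day 14 values 3 exceeded every day 5 value, and the groups overlapped through array 3 of day 14. On both days the Ptgs2 values with CLA in Cy5 lay above those with CLA in Cy3. The contrast between the dyes, its estimate with arrays 3 and 4 turned, was 0.538 at day 14 and 0.385 at day 5. The day 14 estimate was 0.59 ± 0.13 (SE, n = 4), with a limma adjusted p = 0.262 over all 8 arrays and 0.108 with the day 14 arrays alone. It had an unadjusted p under 0.05 whichever day 14 array was left out, the highest being 0.0153 (limma). The limma adjusted p in these leave-outs ran from 0.543 to 0.743, and without the dye term it was higher than in any of them.

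**Figure D2:**
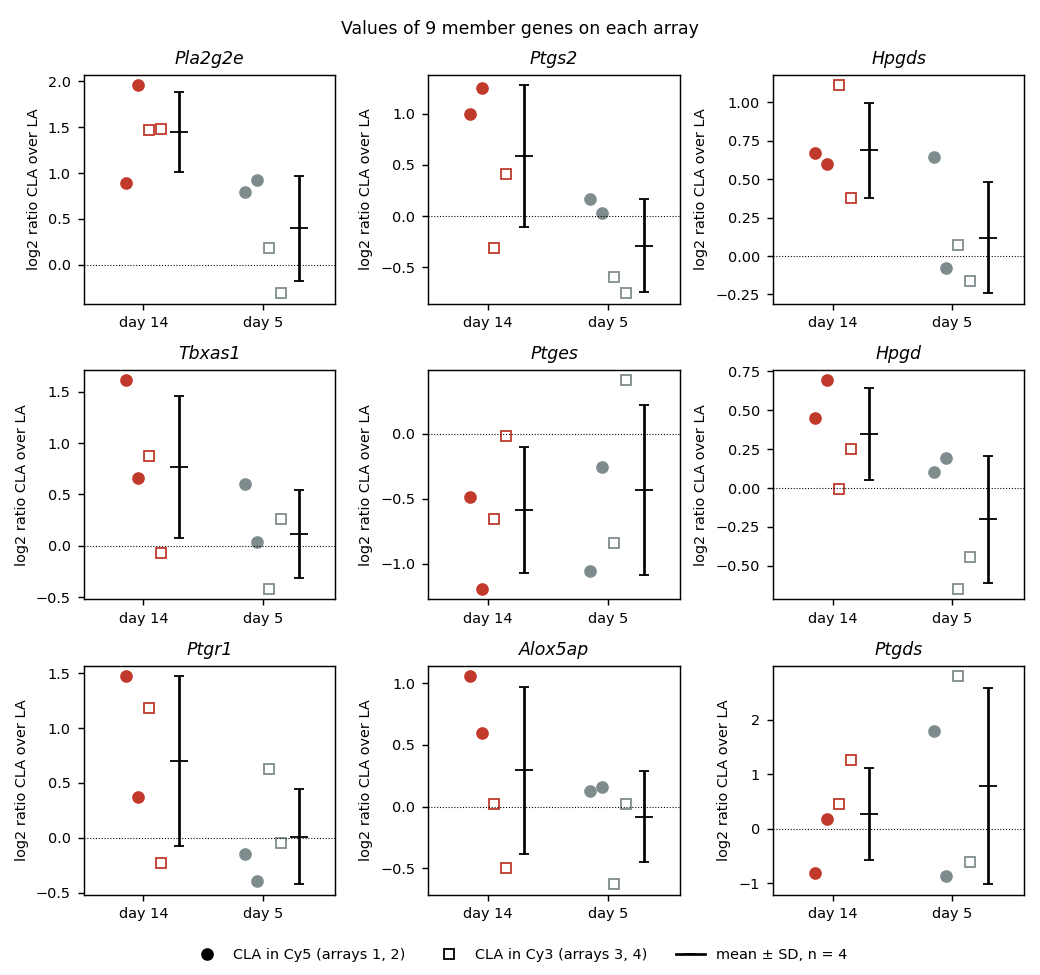
Log2 ratio CLA over LA of 9 member genes on each array, with day 14 on the left and day 5 on the right of each panel; filled circles are arrays with CLA in Cy5, open squares those with CLA in Cy3, and bars show the mean ± SD of 4 arrays. Pla2g2e and Hpgds are above 0 on every day 14 array, whereas Ptgds spreads from −0.87 to 2.80 at day 5.

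The prostanoid synthases, which turn prostaglandin H into the separate prostanoids, did not share a direction: at day 14, 3 of 8 lay above 0 and 5 below. Hpgds, the prostaglandin D synthase of mast cells and macrophages, had 0.67, 0.60, 1.11 and 0.38 at day 14, against 0.64, −0.08, 0.07 and −0.16 at day 5. All 4 day 14 values were positive, and 3 of the 4 day 5 values lay near or below 0. Its day 14 estimate was 0.69 ± 0.16 (SE, n = 4), or 1.61-fold (limma adjusted p = 0.292, and 0.0767 with the day 14 arrays alone). It was called with the day 14 arrays alone once array 4 was left out (0.87, limma adjusted p = 0.043), and with arrays 3 and 4 turned its estimate was −0.06.

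Tbxas1, which forms thromboxane in platelets and macrophages, had 1.61, 0.66, 0.88 and −0.07 at day 14, against 0.60, 0.03, −0.42 and 0.26 at day 5. The day 14 values spread widely, with array 4 just below 0, and the estimate was 0.77 ± 0.22 (SE, n = 4; limma adjusted p = 0.339). Its unadjusted p was under 0.05 in 2 of 4 leave-outs. Ptges, the inducible microsomal prostaglandin E synthase, had −0.48, −1.19, −0.65 and −0.02 at day 14, against −1.05, −0.26, −0.84 and 0.41 at day 5. It lay below 0 on 7 of the 8 arrays, with estimates of −0.59 ± 0.24 at day 14 and −0.43 ± 0.24 at day 5 (limma adjusted p = 0.479 and 0.45). With array quality weights they were −0.54 at day 14 and −0.12 at day 5. The unadjusted p at day 14 was under 0.05 in 2 of 4 leave-outs.

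The constitutive prostaglandin E synthases had day 14 means nearer to 0, with arrays that split by dye. Ptges2 had −0.42, −0.43, 0.17 and 0.13 at day 14, against −0.20, −0.28, 0.05 and 0.12 at day 5, a split by dye on both days. Ptges3, a cochaperone with synthase activity, had 0.40, 0.50, −0.38 and −0.64 at day 14, against 0.53, 0.23, 0.67 and −0.61 at day 5. Its day 14 mean of −0.03 ± 0.20 (SE, n = 4) joins positive Cy5 arrays with negative Cy3 arrays, and its 2 probes had the same sign on all 8 arrays. Ptgis, the prostacyclin synthase of vessel walls, had −0.21, 0.03, −0.16 and −0.002 at day 14, against −0.44, −0.52, −0.62 and 0.15 at day 5. Its day 5 estimate of −0.36 ± 0.13 (SE, n = 4) had a limma adjusted p = 0.32.

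Ptgds, the lipocalin-type prostaglandin D synthase, which is also abundant in the male reproductive tract, had −0.81, 0.18, 0.45 and 1.26 at day 14, against 1.78, −0.87, 2.80 and −0.61 at day 5. Its day 5 values changed sign between arrays of the same dye. The estimates of 0.27 at day 14 and 0.78 at day 5 both had an error of 0.59 log2 units, from the spread over all 8 arrays. Fitted alone, the day 14 arrays gave an error of 0.21 and the day 5 arrays 0.74 (SE, n = 4). The median of 8 epididymis markers was 2.46 on array 1 of day 5 and −0.80 on array 3 of that day, so the markers were high on the one array and low on the other of the 2 with high Ptgds. Their part in the Ptgds values was not tested.

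Prostanoid receptors pass the signal on at the cell surface. At day 14, 7 of 7 had estimates above 0 (50.3% of all genes), from 0.002 for Ptger3 to 0.25 for Ptger2, with a median of 0.13. None had an unadjusted p under 0.05 at day 14 over all 8 arrays. At day 5, 4 of 7 lay above 0 (49.7% of all genes). Ptger2, the prostaglandin E receptor coupled to cyclic AMP, had 0.15, 0.23, 0.39 and 0.23 at day 14, against 0.24, 0.38, 0.36 and −0.25 at day 5. Ptger4, with the same coupling, had 0.17, 0.04, 0.43 and 0.14 at day 14, against 0.27, −0.13, 0.07 and 0.43 at day 5. Both were positive on all 4 day 14 arrays, with estimates of 0.25 ± 0.12 and 0.19 ± 0.10 (SE, n = 4; limma adjusted p = 0.552 and 0.617). With the day 14 arrays alone, Ptger2 had an unadjusted limma p of 0.0151 (adjusted p = 0.155).

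Ptger3, the receptor that restrains lipolysis in adipocytes, lay at 0.002 ± 0.26 at day 14 and −0.38 ± 0.26 at day 5. Fitted alone, the day 14 arrays gave it an error of 0.08. Ptgfr, the prostaglandin F receptor, had −0.38, −0.41, 0.62 and 0.70 at day 14, against −0.38, −0.68, 0.45 and 0.92 at day 5. Its sign followed the dye on both days, and its day 14 estimate was 0.13 ± 0.10 (SE, n = 4). Ptgir, the prostacyclin receptor, had 0.12, 0.07, −0.01 and −0.11 at day 14, against −0.32, 0.06, −0.34 and −0.29 at day 5, and its day 5 estimate of −0.22 ± 0.08 (SE, n = 4) had a limma adjusted p = 0.338.

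Both enzymes that inactivate prostaglandins lay above 0 at day 14. Hpgd, which oxidises prostaglandins as the first step of their breakdown, had 0.45, 0.69, −0.01 and 0.25 at day 14, against 0.10, 0.19, −0.65 and −0.44 at day 5. On both days the Hpgd values with CLA in Cy5 lay above those with CLA in Cy3. Its estimate was 0.35 ± 0.09 (SE, n = 4) at day 14, or 1.27-fold (limma adjusted p = 0.318), and −0.20 ± 0.09 at day 5. Ptgr1, which acts on the oxidised product and on leukotriene B, had 1.47, 0.37, 1.19 and −0.23 at day 14, against −0.14, −0.39, 0.63 and −0.05 at day 5. Its day 14 values lay on both sides of 0, with an estimate of 0.70 ± 0.29 (SE, n = 4; limma adjusted p = 0.489). The estimate was 0.38 without array 1 and 1.08 without array 4, and its unadjusted p was under 0.05 in 1 of 4 leave-outs.

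With probes averaged by gene, the lipoxygenase branch held no member with an unadjusted p under 0.05 in its synthetic enzymes over all 8 arrays. Alox5ap, which presents arachidonic acid to 5-lipoxygenase, had 1.06, 0.60, 0.02 and −0.50 at day 14, against 0.13, 0.16, −0.63 and 0.02 at day 5. The arrays ran from clearly positive to negative at day 14, and the estimate was 0.29 ± 0.16 (SE, n = 4; limma adjusted p = 0.625). Alox5, the 5-lipoxygenase itself, had −0.05, 0.17, 0.24 and 0.03 at day 14, against 0.19, 0.002, −0.24 and −0.24 at day 5. Its 2 probes had the same sign on only 3 of 8 arrays and differed by up to 0.86 log2 units, so its mean of 0.10 ± 0.10 (SE, n = 4) joins probes that disagree. Tested singly at day 14 in limma over all 8 arrays, 1 probe stood at 0.221 (unadjusted p = 0.0445, adjusted p = 0.528). The other Alox5 probe stood at −0.028 (limma unadjusted p = 0.807).

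The other lipoxygenases, Alox12, Alox12b, Alox12e, Alox15, Alox8 and Aloxe3, lie in 2 groups on chromosome 11 and serve mainly skin, platelets and myeloid cells. Their day 14 estimates ran from −0.22 for Alox12 to 0.07 for Alox12b. Lta4h, which makes leukotriene B, lay at 0.12 ± 0.12, and Ltc4s, which makes leukotriene C, at −0.20 ± 0.30 at day 14. Fitted alone, the day 14 arrays gave Ltc4s an error of 0.17. Among leukotriene receptors, Cysltr1 had 0.91, 0.57, −0.76 and −0.84 at day 14, against 0.08, 0.26, −1.43 and −0.56 at day 5. It was positive on every array with CLA in Cy5 and negative on every array with CLA in Cy3, and its day 5 estimate of −0.41 ± 0.15 (SE, n = 4) had a limma adjusted p = 0.322. Ltb4r1 and Cysltr2 lay at 0.01 and −0.07 at day 14.

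The Cyp2j epoxygenases make epoxides of arachidonic acid, and the epoxide hydrolase Ephx2 degrades them. At day 5, 6 of the 6 estimates lay below 0 (median −0.17), against 4 of 6 at day 14 (median −0.10), in the fit without weights. With array quality weights, 4 of 6 lay below 0 at day 5 (median −0.04), the same count as at day 14. Cyp2j5 had 0.51, 0.32, −0.53 and −0.49 at day 14, against −0.30, 0.19, −0.68 and −0.50 at day 5, with a day 5 estimate of −0.32 ± 0.11 (SE, n = 4; limma adjusted p = 0.304). All 6 were below −0.5 on array 3 of day 5, between −0.82 and −0.52. The 5 Cyp2j members lie in a run on chromosome 4, with up to 4 other genes between adjacent members, and have related sequences, and whether their probes tell them apart was not tested. Ephx2 had 1.04, 0.42, −0.88 and 0.50 at day 14, against −0.08, 0.15, −0.53 and −0.06 at day 5, and was not uniform in sign on either day.

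At day 5 as a whole, limma called 0 members in the fit of all arrays (0% of all genes) and 0 with the day 5 arrays alone (0% of all genes). Over all 8 arrays, 0 members were higher at an unadjusted p under 0.05 (4.19% of all genes) and 6 lower (9.17%). The 6 were Cyp2j5, Ptgis, Cysltr1, Ptgir, Pla2g1b and Cyp2j13. That count ran from 0 without array 1 to 12 without array 4, and was 3 without array 2 or array 3. It was also 3 with the array number as a block in place of the dye term. Shares of all genes in these fits are not given here, so the changes in the count are no result about the members. With the day 5 arrays alone and array 4 left out, Pla2g2c and Pla2g10 were called higher, both resting on array 3. The largest day 5 ratios, 0.85 for Pla2g2c, 0.78 for Ptgds and 0.54 for Pla2g10, had errors of 0.49 to 0.59 log2 units.

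**Figure D3:**
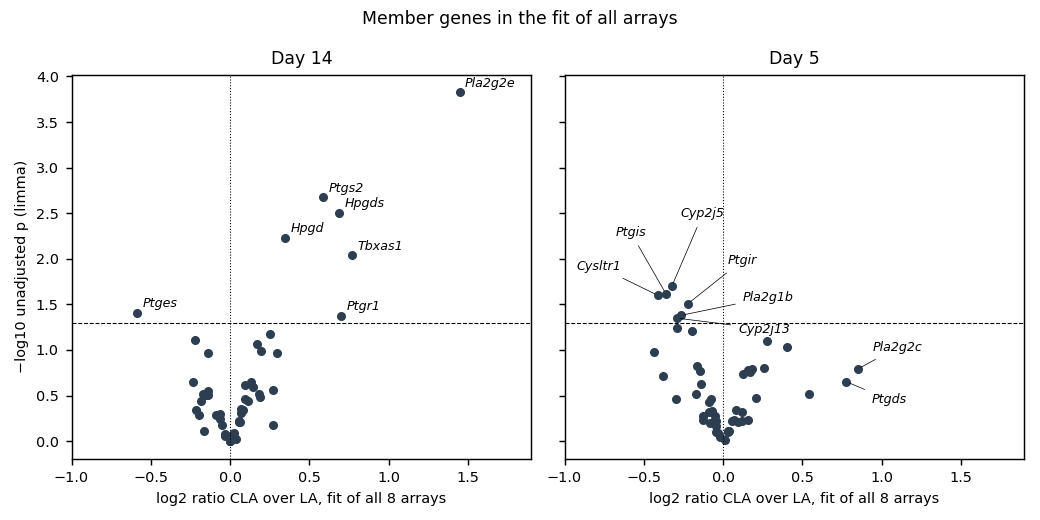
Each point is 1 of 52 member genes, placed by its log2 ratio CLA over LA and by the −log10 of its unadjusted p in limma's fit of all 8 arrays, with day 14 on the left and day 5 on the right; the dashed line marks the unadjusted threshold of 0.05. Pla2g2e at 1.45 stands farthest out at day 14, and the members past the line at day 5 lie below 0.

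Between the days, 0 members were called for day 14 minus day 5 (0% of all genes, limma). At an unadjusted p under 0.05, 4 members were higher at day 14 (2.81% of all genes) and 0 lower (1.44%). The differences were 1.05 ± 0.29 for Pla2g2e, 0.87 ± 0.18 for Ptgs2, 0.57 ± 0.23 for Hpgds and 0.55 ± 0.13 log2 units for Hpgd (SE, 4 arrays a day), all with a limma adjusted p = 0.892. The unadjusted p of Pla2g2e, Ptgs2 and Hpgd stayed under 0.05 whichever of the 8 arrays was left out, and that of Hpgds did so for 2 of the 8. The 4-member count was 7 without array 4 of day 14 and 9 without array 4 of day 5. Shares of all genes in these leave-outs are not given here, so the 7 and 9 are no result about the members.

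Dye orientation split the members no more often than the array as a whole. The mean of the arrays with CLA in Cy5 and the mean of those with CLA in Cy3 lay on opposite sides of 0 for 29 of 52 members at day 14 (55.8%, against 68.8% of all genes) and for 32 of 52 at day 5 (61.5%, against 69.1%). Over all genes, day 14 arrays of opposite dye correlated at −0.377 to −0.286, and those of the same dye at 0.684 and 0.719. With arrays 3 and 4 turned, limma over all 8 arrays called 2 members higher (Cyp2j5 and Cysltr1) and 2 lower (Ptges2 and Ptgfr) at day 14, where 7.13% of all genes were called higher and 5.53% lower. At day 5 it called 0 members higher (7.7% of all genes) and 4 lower (5.27%). At day 14 both shares of the 52 members lay below those of all genes. At day 5 the share called higher lay below that of all genes, and the share called lower lay above it.

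Markers of other cell types moved on the same arrays. Of 12 measured macrophage markers, 12 lay above 0 at day 14, with list medians of 1.22, 0.56, 0.65 and 0.02 on the 4 day 14 arrays, against 0.54, 0.10, −0.09 and −0.07 on the 4 day 5 arrays. Tbxas1 and Ptgr1 were likewise highest on array 1 of day 14 and lowest on its array 4 among the day 14 arrays, and Alox5ap was as well. Among the day 5 arrays Tbxas1 was highest on array 1 and lowest on array 3, as the macrophage median was. Ptgr1 was instead highest on array 3 of day 5 (0.63) and stood at −0.14 on its array 1. Alox5ap was highest on array 2 of day 5 (0.16) and lowest on its array 3 (−0.63). Array 4 of day 14, with the macrophage median at 0.02, gave Pla2g2e 1.48, Hpgds 0.38 and Ptgs2 0.41. Mast cell markers lay above 0 for 7 of 9 at day 14, with list medians of 0.15, 0.31, 0.17 and 0.16 on the 4 day 14 arrays, against 0.03, 0.17, −0.09 and −0.35 on the 4 day 5 arrays. Array 1 of day 14, with CLA in Cy5, had a mast cell median of 0.15 and Ptgs2 at 1.00. Array 3, with CLA in Cy3, had a median of 0.17 and Ptgs2 at −0.31. At an unadjusted p under 0.05 over all 8 arrays, 3 of the 9 mast cell markers were higher and 1 lower at day 14. Of the 12 macrophage markers, 10 were higher and 0 lower by the same rule, against 4.24% and 5.53% of all genes.

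Endothelial markers lay below 0 for 8 of 9 at day 14 and for 8 of 9 at day 5, and mesothelial markers for 8 of 8 at day 14 and for 7 of 8 at day 5. Ptges and Ptgis lay above 0 together only on array 4 of day 5, where the endothelial median was 0.80 and the mesothelial −0.04. Of 8 adipocyte markers 6 lay below 0 at day 14 and 7 at day 5, with medians of −0.62 and −0.40. Platelet markers had a median of 0.12 at day 14, with 4 of 5 above 0, and neutrophil markers one of 0.04, with 4 of 7 above 0. Thermogenic markers had one of 0.82, with 5 of 5 above 0. That list holds Ucp1, whose sign served to choose the direction, so the side of 0 of the thermogenic list is no result. The part of any of these cell types in the members' values was not tested.

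**Figure D4:**
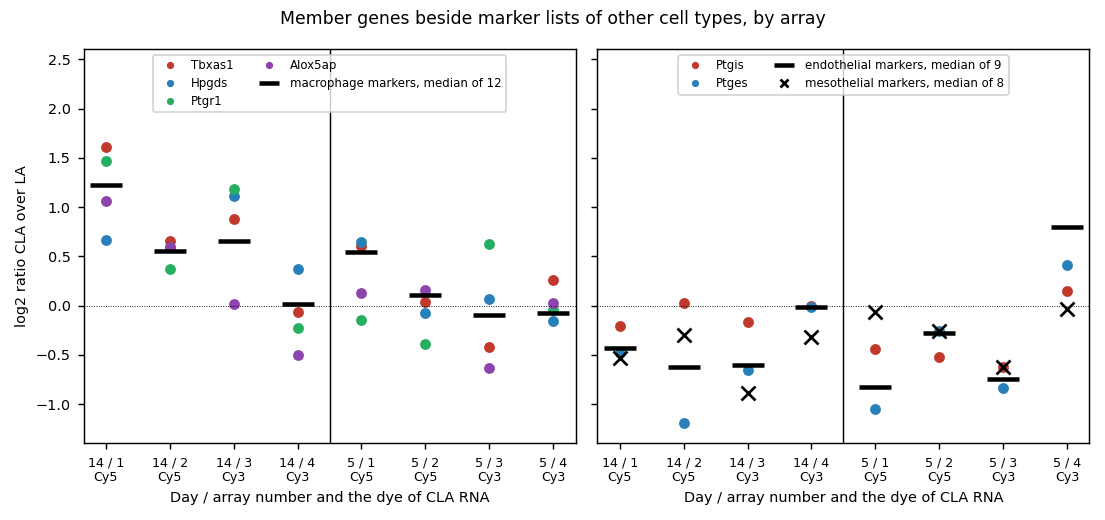
Log2 ratio CLA over LA by array, day 14 on the left and day 5 on the right of each panel; coloured points are member genes, and black marks are medians of the macrophage, endothelial or mesothelial marker list. On the day 14 arrays Tbxas1 and Ptgr1 are high where the macrophage median is high (1.22 on array 1) and lowest where it is 0.02 (array 4). At day 5 Ptgr1 is highest on array 3, where that median is −0.09, while Tbxas1 is highest on array 1, where it is 0.54.

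Other genes of arachidonic acid handling were taken from a list of 71 symbols, of which 57 were measured. At day 14, 35 lay above 0 and 22 below. Over all 8 arrays limma called 0 of them, and 8 were higher and 1 lower at an unadjusted p under 0.05 (4.24% and 5.53% of all genes). With the day 14 arrays alone, 3 were called higher and 0 lower (0.533% and 1.04% of all genes). Cbr3, a carbonyl reductase, had 0.76, 0.91, 0.86 and 1.11 at day 14, against 0.44, 0.16, 0.41 and −0.12 at day 5 (day 14 arrays alone, limma adjusted p = 0.0245). Mgst2, a membrane glutathione transferase able to make leukotriene C, had 0.77, 1.25, 0.39 and 0.74 at day 14, against 0.24, 0.27, −0.26 and −0.18 at day 5 (0.0472 in the same limma fit). Lpcat3, which puts arachidonic acid back into phospholipids, had 0.30, 0.76, 1.33 and 0.99 at day 14, against 0.56, −0.15, 1.12 and 0.28 at day 5 (0.043 in the same limma fit). All 3 were positive on every day 14 array, and Cbr3 was the most even of them. Plaat3, the main phospholipase A2 of adipocytes, formerly Pla2g16, had −0.11, −0.51, −1.53 and −0.98 at day 14, against −1.19, 0.02, −1.83 and 0.23 at day 5. It is named outside the rule after its values were seen (day 14 arrays alone, limma adjusted p = 0.054).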

How the data were processed

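The deposited table gives, per the file's column names, 1 value per probe and array for 22393 probes, none missing. The authors deposited them on a scale read here as log10 ratio of CLA over LA, inferred from the values, and they were multiplied by 3.32 to give log2. How the authors scanned, background-corrected and normalized the arrays was not given in the sources used here. Column medians as deposited ran from −0.0176 to 0.0109.

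Gene symbols came from the platform annotation: 18218 probes had 1 symbol, 16 several and 4159 none, and matching by Entrez number to a GRCm38.p6 gene table changed 0 symbols. A gene's value was the mean of its probes. The model for all 16504 genes (limma 3.58.1, R 4.3.3, lmFit and eBayes) held the 2 day means and a dye term over the 8 arrays, leaving 5 residual degrees of freedom, and p-values were Benjamini-Hochberg adjusted over all genes. The script was tested on simulated data. Alternatives were the arrays of a day alone, array quality weights, no dye term, arrays 3 and 4 turned, median centring, the array number as a block, robust eBayes, probe-level tests, no log conversion and each array left out. Fits of a day's arrays alone with further changes were added after seeing the data.

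Members and lists were chosen with earlier results of these data known, and so was the fit. Per-array values are given for the 16 members with the smallest unadjusted p at day 14, the 5 at day 5 and the 3 for the difference, any called with a day's arrays alone, and Pla2g4a, Ptgs2, Alox5 and Alox5ap. Ptgds, Ephx2 and Ptges3 were added after their values were seen. From each other list at most the 3 genes with the smallest p are named.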

Additional observations from a re-analysis of the deposited data

Results flagged for a closer look

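Within 104 sets of 4 array values (52 members on 2 days), 5 had 1 array separated from the other 3 by more of the range than Dixon's critical value allows. Chance flags about 1 in 20 such sets. Pla2g2c stood at 3.578 on array 3 of day 5, with the other arrays between −0.199 and 0.196. Pla2g5 stood at −0.352 on that array, with the others between 0.138 and 0.186, and Pla2g4e at −0.421, with the others between 0.053 and 0.096. Ptgir stood at 0.059 on array 2 of day 5, with the others between −0.34 and −0.293. At day 14, Pla2g15 stood at 0.191 on array 4, with the others between 0.004 and 0.03.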

How the results depend on the processing

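Many results depend on the choice to use arrays 3 and 4 as deposited. If they were deposited already turned, turning them again gives the contrast between the dyes and not CLA over LA. A sign kept or changed is then no check of the CLA estimates. On turned arrays, 11 of 26 recomputed estimates kept their sign and side of the threshold, among them Ptgs2 at day 14 (0.538). Over all 8 arrays 4 members were called at day 14 and 4 at day 5 in place of 0. At an unadjusted p under 0.05 there were then 15 members at day 14 (31.8% of all genes), 10 at day 5 (33.2%) and 0 for the difference (2.52%), in place of 7, 6 and 4. The member median was then −0.034 at day 14 (0.031 as deposited) and −0.016 for the difference (0.078). Ptgfr was called the other way at day 14 (−0.526). With the day 14 arrays alone, also turned, Pla2g2e stood at −0.023 and 14 members were called in place of 1. The share of all genes called in that fit is not given here, so the 14 are no result about the members. Array quality weights called 4 members at day 14, and gave 11 members at an unadjusted p under 0.05 at day 14 (20.9% of all genes) and 9 for the difference (7.35%). With the arrays of the day alone, 1 member was called at day 14, and 1 had an unadjusted p under 0.05 at day 5 (4.63% of all genes). That day 5 count was also 1 without the dye term. Leaving out an array gave 0 to 12 members at an unadjusted p under 0.05 at day 5, and 3 to 9 for the difference. With the day 14 arrays alone, 0 to 1 members were called when an array was left out, and 0 without the dye term or with probe-level tests. With the day 5 arrays alone, 0 to 2 were called. The causes of these changes were not tested. No share of all genes is given for the leave-outs, the fits without the dye term, the probe-level tests or the block. Counts from those fits are no result about the members. With the array number as a replicate block in place of the dye term, 0 members were called for any comparison, and 3 members had an unadjusted p under 0.05 at day 5. Deviations of same-numbered arrays from their day means correlated at 0.364 to 0.638 across genes, but the same number also means the same dye. After the dye term the correlations were −0.645, −0.474, −0.338 and 0.144, so the numbers were not taken as pairs. Of the members and comparisons singled out by the rule for per-array values, 26 estimates over all 8 arrays were recomputed. All 26 kept their sign and their side of the adjusted threshold under median centring, robust eBayes, no dye term, the block and no log conversion. Dye and array number are balanced within each day, and robust eBayes changes only the errors, so the signs in those 3 fits were fixed in advance. No log conversion rescales the estimates and leaves the p-values as they were. The 26 estimates also kept sign and side with probes tested singly, taking a gene's probe with the smallest p. For Alox5 the other probe stood at −0.028 at day 14. No filter on dim probes could be run without intensities, so signal over background is unknown.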
